A study of Mus musculus with 3 samples.

Results

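The genes described here encode the proteins that choose splice sites: the SR proteins, the hnRNPs, the Tra2 and Ptbp proteins, the Clk kinases and a small set of Rbm proteins. Members were chosen by gene symbol alone, as protein-coding genes named Srsf followed by a number, Hnrnp, Tra2a or Tra2b, Ptbp1 to Ptbp3, Clk1 to Clk4, or Rbm5, Rbm10, Rbm25 and Rbm39. This gave 44 genes of 55450 annotated genes, of which 21901 are protein-coding. They are 11 SR protein genes, 20 hnRNP genes, 2 Tra2 genes, 3 Ptbp genes, 4 Clk genes and 4 Rbm genes. Another 2 genes with a matching symbol, Hnrnpa1l2-ps and Hnrnpa1l2-ps2, have no coding transcript and were left out.

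Macrophages had been grown in culture from bone marrow precursors of C57BL/6J mice, and total RNA of their cytosolic fraction was sequenced after ribosomal RNA was depleted. All cells had been treated with lipid A, the Toll-like receptor 4 agonist of bacterial lipopolysaccharide, at 100 ng/ml for 60 min. The 3 libraries form 1 group and are called replicates 1, 2 and 3 as labelled, each from 1 µg of RNA with a size range of 250 to 400. Untreated cells and nuclear RNA were not analysed here, so every value is a level in the treated cytosol and not a response to lipid A. The labels list separate biological replicates under a shared donor entry that names the strain, and whether each culture had its own mouse is not stated. All p-values below therefore measure the spread between these libraries, which may be technical. In such bulk RNA, fewer cells of a type and less RNA per cell cannot be told apart.

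SR proteins carry RNA-binding domains and a domain rich in arginine and serine, and they generally promote the use of nearby splice sites. The hnRNPs coat nascent RNA and often repress the exons they bind, although each family has members that act in both directions. Clk kinases phosphorylate SR proteins and so set where they sit and how active they are. Many of these genes control their own messages through a short conserved exon that carries a stop codon, called a poison exon, or through a kept intron. A message with such an early stop is normally destroyed by nonsense-mediated decay (NMD), and a message with a kept intron is often held in the nucleus.

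The libraries held 63944236, 71989793 and 69305836 expected counts in annotated genes, and the members took 0.483, 0.463 and 0.497% of them. Abundance is given as TPM, which corrects for transcript length and sums to the same total over all RNAs of a library. Values come from tables laid out as RSEM writes them, unless they are said to be kallisto-style, from a second set of transcript tables laid out as kallisto writes them. Protein-coding genes held 32.7% of all TPM in replicate 1, 21.6% in replicate 2 and 23.6% in replicate 3. TPM was highest in replicate 1 for all 43 members above 0 and lowest in replicate 2 for 41 of them. Levels were for this reason also set against the median tested gene of the same library. All 8 macrophage markers were above that median, with Csf1r, the receptor for the macrophage growth factor, at 241 ± 85.8 TPM (mean ± SD, n = 3). Markers of T, B, dendritic, erythroid, stromal and endothelial cells (19 genes) were each below 1 TPM. Of 6 neutrophil markers 3 were above 1 TPM, with means of 10.1 TPM for S100a8, 15.9 TPM for S100a9 and 13.7 TPM for Csf3r. These 3 also lay over the median tested gene. Ly6g, Elane and Mpo were near 0.

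In the GENCODE annotation the members have 459 transcripts. Of these 200 are protein-coding, 138 are retained-intron models, 67 are NMD models and 54 are processed transcripts, which have no reading frame assigned. At least 1 NMD model is annotated for 31 of 44 members (70.5%), against 31.1% of the 9117 protein-coding genes with a mean of at least 1 TPM. A retained-intron model is annotated for 34 members (77.3%), against 63.3% of those genes. The members have more models per gene, with a median of 9.5 against 5, and a gene with more models has more chances to hold one of each kind. Conversely, all annotated transcripts of Hnrnpa0, Hnrnpab, Hnrnpf, Hnrnph2 and Srsf12 are protein-coding, and no isoform share can be read for them.

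The stop codons of the NMD models fall into separate kinds. In 24 of the members' 67 NMD models (35.8%) the stop lies in an exon that overlaps no exon of a protein-coding transcript of the gene, against 965 of 4674 (20.6%) over all expressed genes. These 24 models belong to 11 members: Srsf3, Srsf4, Srsf7, Srsf9, Srsf11, Tra2a, Tra2b, Hnrnpl, Hnrnpll, Rbm25 and Rbm39. In another 12 models (17.9%, against 5.95% over all expressed genes) the stop is also the stop of a protein-coding transcript, with junctions only behind it. The other 31 models stop in an exon that overlaps an exon of a coding transcript, at a stop that no coding transcript has. The 24 models of the first kind use 18 distinct exons, since several models of Rbm39, Srsf3, Srsf11 and Tra2b share one. In all 24 models the stop lies at least 50 bases before the last exon junction, the usual distance for decay. The same holds in 954 of the 965 models over all expressed genes. It also holds in all 12 members' models of the second kind and in 30 of the other 31. The distance therefore does not set the first kind apart.

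The part of the poison exon that is translated is printed for 6 members with the highest NMD shares among those with such exons, since this stretch sets the early stop. It is given from the first base of the exon to the stop codon, in capitals, as read from GENCODE M21 transcripts on GRCm38, the build called mm10 in the deposited files.
Hnrnpll-203: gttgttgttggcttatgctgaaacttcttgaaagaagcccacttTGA
Rbm39-225: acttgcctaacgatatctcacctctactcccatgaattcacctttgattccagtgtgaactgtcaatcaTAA
Srsf3-201: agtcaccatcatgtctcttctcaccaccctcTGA
Tra2b-206: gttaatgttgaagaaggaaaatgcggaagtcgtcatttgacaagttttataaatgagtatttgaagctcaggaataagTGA
Srsf4-204: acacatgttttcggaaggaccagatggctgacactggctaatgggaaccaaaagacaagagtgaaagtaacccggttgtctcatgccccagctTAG
Srsf11-206: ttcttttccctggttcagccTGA
The stretch of Hnrnpll-203 lies at chr17:80044976-80045022 on the minus strand, in an exon of 83 bases, and 7 junctions follow the stop. That of Rbm39-225 lies at chr2:156178881-156178952 on the minus strand and takes up 72 bases of an exon of 73, with 15 junctions behind it. In Srsf3-201 the stretch, stop codon included, takes up 34 bases of an exon of 456, at chr17:29039454-29039487 on the plus strand. In Tra2b-206 it takes up 81 bases of an exon of 276, at chr16:22259181-22259261 on the minus strand. The Srsf4-204 stretch lies at chr4:131884295-131884390 on the plus strand, 96 of 188 bases. The Srsf11-206 stretch lies at chr3:158024209-158024231 on the minus strand, 23 of 109 bases. All of these sequences end a reading frame far from the last junction, between 456 bases in Srsf11-206 and 1442 bases in Rbm39-225.

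Among the SR proteins, Srsf5 had the highest level and Srsf2 the next. Srsf5, an SR protein that promotes exon inclusion, was at 93.7, 61.0 and 86.2 TPM in replicates 1, 2 and 3. Srsf2, an SR protein that stays mainly in the nucleus, was at 35.6, 27.3 and 34.1 TPM. Srsf1, the founding SR protein and an exporter of messages, was at 25.1, 18.1 and 22.1 TPM. The ranges of these 3 genes over the libraries did not overlap, so their order was larger than the spread. The level of Srsf2 is less certain, since its exons overlap Mettl23 and Mfsd11 on the opposite strand, as given below. Srsf4 was lowest of those detected, at 9.76, 6.59 and 7.27 TPM. Srsf12 was listed at 0 in all 3 libraries. A count of 0 allows up to 3 counts, or 0.0469, 0.0417 and 0.0433 CPM (counts scaled to the library total) in replicates 1, 2 and 3, for counting error only. The other 6 SR protein genes had means between 10.5 TPM for Srsf10 and 19.9 TPM for Srsf3.

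Tra2b and Tra2a are SR-like proteins that bind purine-rich exon enhancers. Tra2b was at 21.6, 14.1 and 17.0 TPM and Tra2a at 15.6, 9.44 and 10.4 TPM. Tra2b was the higher in every library, although their ranges over the libraries overlapped.

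The hnRNPs held the highest levels of all members. Hnrnpa2b1, which sorts RNAs and microRNAs besides its role in splicing, was at 138, 88.0 and 113 TPM. Hnrnpa3, a close relative, was at 132, 89.4 and 111 TPM, and Hnrnpf, which binds runs of guanines, at 134, 87.0 and 102 TPM. These 3 genes cannot be ordered beyond their spread, since the order among them changed from library to library. The kallisto-style values were lower for nearly all members, and there the means were 48.8 TPM for Hnrnpa2b1, 49.8 for Hnrnpf and only 19.4 for Hnrnpa3. The coding model Hnrnpa3-207 had a mean of 35.5 TPM in the RSEM-style tables and was listed at 0 in all 3 kallisto-style tables. Hnrnpk, Hnrnpab and Hnrnpu followed with means of 84.3 ± 16.6, 62.5 ± 9.09 and 61.3 ± 14.1 TPM (SD, n = 3). At the other end, Hnrnph3 was at 3.76, 1.86 and 2.70 TPM, below every other hnRNP in each library. The other 13 hnRNP genes had means between 9.16 TPM for Hnrnpr and 51.8 TPM for Hnrnpl. Hnrnpa1 and Hnrnpa3 have processed copies elsewhere in the mouse genome, so reads could be split among copies and their levels are uncertain to that extent.

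Of the polypyrimidine tract-binding proteins, which repress exons by binding pyrimidine runs, Ptbp3 and Ptbp1 were abundant and Ptbp2 was scarce. Ptbp3, the form typical of blood cells, was at 58.6, 38.5 and 43.3 TPM. Ptbp1, the widespread form, was at 45.4, 34.0 and 32.2 TPM. Ptbp2, the form typical of neurons, was at 1.79, 0.79 and 1.30 TPM. Ptbp3 was above Ptbp1 in each library, and every library had Ptbp2 lowest.

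The 4 Clk kinases differed in level. Clk1 was at 26.6, 18.8 and 12.6 TPM, Clk3 at 16.2, 10.4 and 11.5 TPM, Clk4 at 5.71, 2.98 and 3.86 TPM and Clk2 at 2.99, 2.14 and 2.67 TPM. The order Clk1, Clk3, Clk4, Clk2 held in all 3 libraries. Clk1 and Clk3 overlapped in range, and replicate 3 had them closest.

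Rbm39, a coactivator and splicing factor that resembles U2AF2, was at 49.3, 26.5 and 35.3 TPM. Rbm25, which binds the U1 particle and exonic enhancers, was at 17.4, 8.91 and 11.9 TPM, and Rbm5, a regulator of splicing in apoptosis genes, at 17.0, 10 and 10.3 TPM. Rbm10, a paralogue of Rbm5, was at 4.18, 2.70 and 3.22 TPM. Rbm39 was highest and Rbm10 lowest in each library, while Rbm25 and Rbm5 changed places between libraries.

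**Figure D1:**
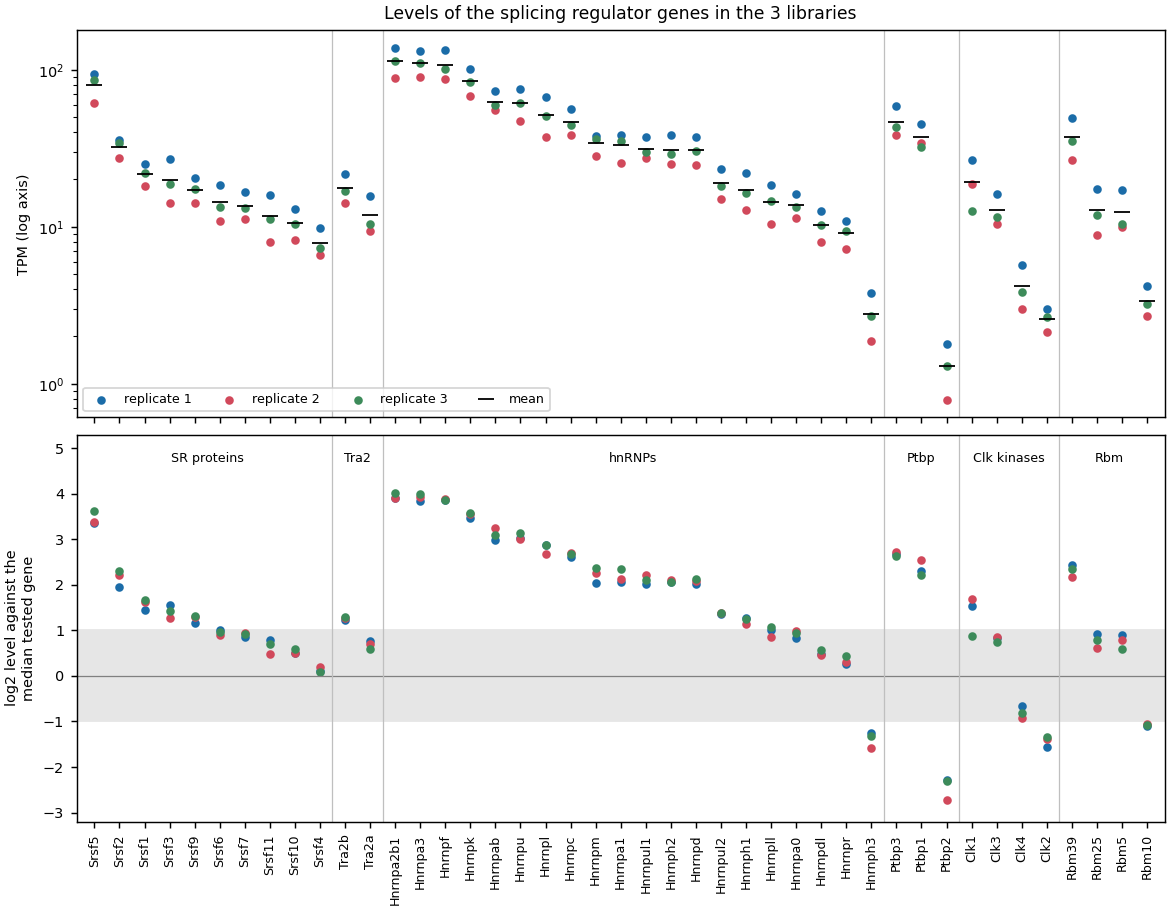
The upper panel plots TPM on a log axis for the 43 members above 0, with 1 point per library and a bar for the mean, and the lower panel plots the log2 level of the same genes against the median tested gene of the library, with the band from -1 to 1 in grey. Replicate 1 is highest for every gene in TPM, whereas against the median gene the 3 points of most genes lie close together, and Clk1 is the widest spread at 0.82 log2 units.

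Set against the median expressed gene, the members lay high. A gene was called above or below where its log2 level differed from the library median by more than 1 (2-fold) in limma's treat test, with a Benjamini-Hochberg adjusted p under 0.05 over 9117 protein-coding genes. Of the 43 members tested, 24 were above (55.8%, against 26.3% of all tested genes), 3 were below (6.98%, against 24.5%) and 16 were not called. The median log2 level was 1.37 for the members and 0.00 for all tested genes. In all 24 genes called above, the log2 level was over 1 in each of the 3 libraries. A minimum of 5 TPM raises the median gene and removes Ptbp2, Clk2, Hnrnph3, Rbm10 and Clk4 from the test, the 3 members called below among them, and it left 15 members above. With no minimum, 38 were above and 0 below. With TPM rescaled over protein-coding genes 30 members were above. Hnrnpa0, Hnrnpll, Srsf6, Srsf7, Clk1 and Clk3 were added, and Hnrnph3 and Clk2 were no longer called below. Rescaling multiplies all TPM of a library by the same factor, so more low genes pass the minimum and the median gene is lower. With a pseudocount of 1 neither Hnrnph1 (1.12, adjusted p = 0.084, limma) nor Hnrnph3 (-1.14, adjusted p = 0.069) was called. The kallisto-style values left Srsf3, Srsf9, Tra2b, Hnrnph1 and Hnrnpul2 uncalled, and Hnrnph1 was also not called without replicate 1 (1.14, adjusted p = 0.12).

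By family, the hnRNPs lay highest. Of 20 hnRNP genes 15 were above and 1, Hnrnph3, was below (-1.38 ± 0.08, adjusted p = 0.0039, limma), with a median log2 level of 2.15. Hnrnpa2b1 lay 3.95 ± 0.07 log2 units over the median gene (SE, n = 3; adjusted p = 2.1e-07, limma), a 15.4-fold difference. Among the 10 SR protein genes tested 5 were above (Srsf1, Srsf2, Srsf3, Srsf5 and Srsf9) and none below, with Srsf5 at 3.46 ± 0.08 (adjusted p = 5.7e-07, limma). Tra2b was above at 1.27 ± 0.05 (adjusted p = 0.0028, limma), and Tra2a was not called at 0.69 ± 0.06. Ptbp1 and Ptbp3 were above at 2.35 and 2.68, and Ptbp2 was below at -2.44 ± 0.11 (adjusted p = 2.3e-05, limma). Of the Rbm genes Rbm39 alone was above, at 2.32 ± 0.07 (adjusted p = 4.9e-06, limma). Rbm10 was not called at -1.08 although it lay below -1 in each library, and it was called below with the kallisto-style values (-1.52, adjusted p = 0.00024, limma).

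No Clk kinase was called above by limma, although Clk1 had an unadjusted p of 0.027. Clk2 was below at -1.43 ± 0.07 (adjusted p = 0.0012, limma), and Clk3 and Clk4 lay within the band at 0.80 and -0.80. Clk1 had log2 levels of 1.54, 1.69 and 0.87 in replicates 1, 2 and 3. Replicate 3 stands low, and with it the mean of 1.37 ± 0.15 was not called (adjusted p = 0.053, limma). Without replicate 3 the mean was 1.61 and was called (adjusted p = 0.00044, limma). With all 3 libraries Clk1 was also called above from FPKM (1.53, adjusted p = 0.014), from TPM rescaled over protein-coding genes (1.72, adjusted p = 0.004) and with no minimum (2.72, adjusted p = 3.1e-07). Clk3 was called above from rescaled TPM (1.15, adjusted p = 0.031) and with no minimum (2.15, adjusted p = 2.1e-08). Both of these settings let more low genes in and so lower the median gene.

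The spread between libraries beyond counting error was small for most members. It is given as the biological coefficient of variation (BCV), the relative SD of the underlying level, from edgeR. The 43 members had a median BCV of 0.0917, from 0.0822 for Srsf6 to 0.212 for Ptbp2, and all 13026 genes tested had a median of 0.122. Clk1 was second at 0.1999, with 3777, 4386 and 2503 counts in replicates 1, 2 and 3. The range of the log2 level over the 3 libraries had a median of 0.18 among members and 0.21 among all tested genes. Most members lay above the median gene in level, and no genes of like level were set beside them. Neither difference can therefore be read as particular to the members. The libraries themselves differed by far more than sampling noise, with chi-square values per degree of freedom of 158, 100 and 115 between pairs, so no table repeats the counts of another. This does not show whether the cultures or RNA preparations were separate.

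**Figure D2:**
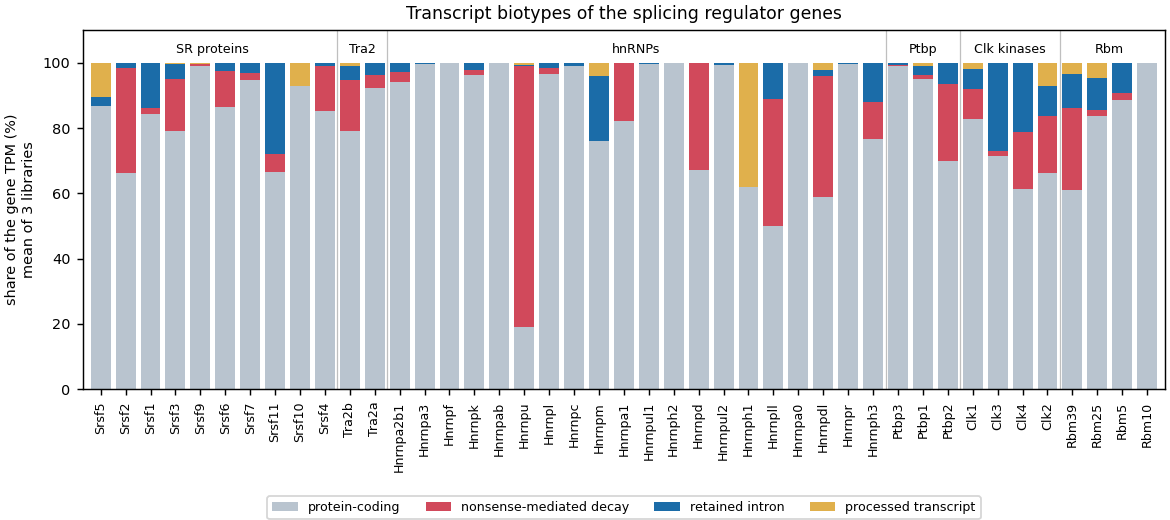
Stacked bars give, for the 43 members above 0, the mean share of the gene's TPM in protein-coding, NMD, retained-intron and processed transcript models over 3 libraries, in percent, ordered by family and level. Protein-coding models hold most of nearly every gene, and Hnrnpu, with 79.9% in NMD models, is the exception that stands out.

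Retained-intron models held little of most members in the cytosol. For each gene and library the TPM of its retained-intron models was summed and divided by the TPM of the gene. Of the 33 members with any such share, 20 had a mean under 5%, 10 lay from 5 to under 20%, and 3 reached 20%. These 3 of 33 (9.09%) lie at the background of 9.05% of all expressed genes. Tested as a log2 ratio of retained-intron to coding TPM, 33 of 34 members were more than 2-fold below 1 (97.1%, against 92.7% of 5772 genes), and 0 were above by limma (against 0.78%), with all 34 ratios below 0. With a pseudocount of 1 the calls of Clk2, Clk3, Clk4, Hnrnph3 and Ptbp2 were lost, which left 28, and with the kallisto-style values those of Clk4, Hnrnpll and Rbm39. The median log2 ratio was -4.49 among members and -4.71 among all genes tested.

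The 3 genes with the highest retained-intron shares were Srsf11, Clk3 and Clk4. Srsf11, an SR-related protein, had 38.1, 15.6 and 30.2% of its TPM in 11 retained-intron models. Its share varied more than 2-fold between libraries and was lowest in replicate 2. Its log2 ratio to coding TPM was -1.29 ± 0.32 and was not called (adjusted p = 0.21, limma). It was called below without replicate 1 (-1.65, adjusted p = 0.040) and from expected counts (-2.34, adjusted p = 0.016). No single model carried it: the highest, Srsf11-211 (521 bases), held 7.78, 4.57 and 9.93%.

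Clk3 had 26.4, 27.6 and 27.3% of its TPM in retained-intron models, nearly the same in each library. A single model, Clk3-202, held 21.1, 25.3 and 23.5% of the gene. This model is 389 bases long, against 2496 bases for the main coding model Clk3-201, and TPM gives more weight per count to short models. In expected counts the retained-intron share of Clk3 was 12.5, 7.38 and 10.2%. The log2 ratio of -1.37 ± 0.17 was called below (adjusted p = 0.036, limma), but not when any 1 replicate was left out (adjusted p from 0.073 to 0.14). Clk3-202 also overlaps an exon of Edc3 on the opposite strand by 115 bases, and Edc3 was at 1.54 TPM. The coding models Clk3-201 and Clk3-205 overlap Edc3 as well, by 584 and 1197 bases. Clk4 had 22.1, 17.7 and 24.0% over 7 such models, the highest of which, Clk4-210, held 2.64, 10.8 and 8.03%. Its ratio of -1.43 ± 0.20 was called (adjusted p = 0.037, limma) and was not without replicate 1 (0.063), without replicate 2 (0.16) or with the kallisto-style values (-0.99, adjusted p = 0.55). No member had a mean of 20% in expected counts over the 3 libraries, and in single libraries Srsf11 (27.1%) and Ptbp2 (22.0%) passed it in replicate 1.

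Clk1 is known for a pool of partly spliced messages that stay in the nucleus. In this cytosol its 7 retained-intron models held 6.68, 2.12 and 9.56% of the gene, 14.4-fold below its coding model (log2 -3.85 ± 0.43, adjusted p = 0.00033, limma). That ratio was less negative than the median of -4.71 over all genes tested, so Clk1 was not low in this cytosol beside other genes. Rbm39 had 15.3, 4.55 and 11.0%, Rbm25 16.6, 4.40 and 9.23% and Rbm5 11.6, 5.31 and 10.5%. In each of the 3 Rbm genes replicate 1 was highest and replicate 2 lowest. Srsf1 differed from them with 10.4, 19.6 and 11.7%, highest in replicate 2. Hnrnpm depended on the quantifier, with 13.9, 21.1 and 24.7% in the RSEM-style tables and a mean of 3.80% in the kallisto-style tables. That difference lay in 1 model of 591 bases, Hnrnpm-213.

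The retained-intron share moved with the library across the members. It was lowest in replicate 2 in 26 of 33 members (78.8%), against 58.7% of 4885 expressed genes with a single lowest library. The order replicate 1, then 3, then 2 held in 23 of 33, and this full order was not counted over all genes. Replicate 1 was highest in 81.25% of members and in 56.8% of all expressed genes, among those with a single highest library. The exceptions to replicate 2 being lowest were Clk3, Hnrnpa3, Hnrnpc, Hnrnpdl, Hnrnpm, Ptbp3 and Srsf1. The members' median share was 3.97, 1.92 and 3.68% in replicates 1, 2 and 3, and the median over all expressed genes was 1.82, 0.86 and 1.33%. From the kallisto-style tables replicate 2 was lowest in 29 of 33 members with a single lowest library (87.9%), against 62.7% of all genes. No test was made of this order. Beside it stand the levels of RNAs known to stay in the nucleus. The long RNA Malat1 was at 417, 122 and 323 TPM in replicates 1, 2 and 3. Neat1, the scaffold of paraspeckles, was at 38.9, 12.4 and 35.9 TPM. Rn7sk, the 7SK RNA, was at 36384, 35222 and 61838 TPM. Divided by the TPM of the median gene, Malat1 was at 45.9, 21.2 and 46.9 and Neat1 at 4.28, 2.15 and 5.23, both lowest in replicate 2, whereas Rn7sk was at 4007, 6115 and 9001 and lowest in replicate 1. Of the same list of 5, Meg3 was at 0 and Kcnq1ot1 was below 0.1 TPM in every library. The summed level of the list was 36840, 35357 and 62197 TPM, nearly all of it Rn7sk. Their part in the result was not tested.

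**Figure D3:**
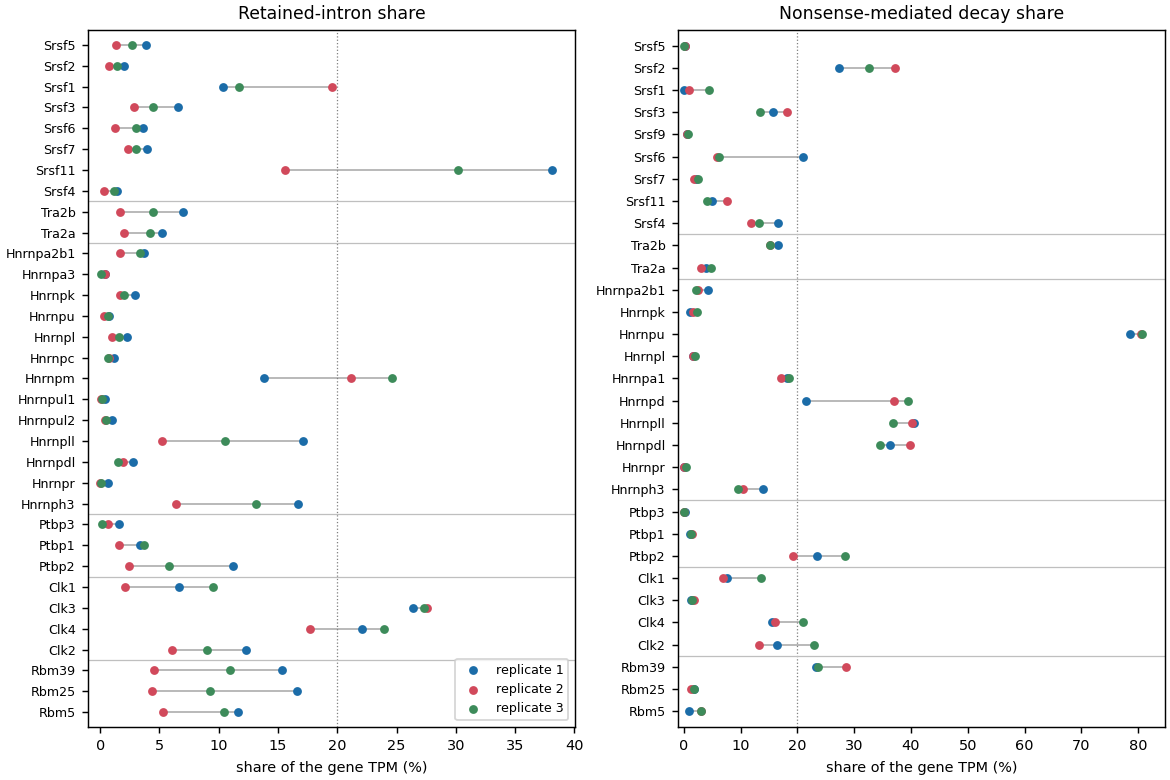
Each row is a member with a share above 0, with 1 point per library for the percent of the gene's TPM in retained-intron models (left) and in NMD models (right), and the dotted line marks 20%. On the left replicate 2 is the lowest point in 26 of 33 rows, and on the right it is the lowest in 12.

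NMD models held more of the members than retained-intron models did. Of 31 members with an annotated NMD model, 14 had a mean share under 5%, 10 lay from 5 to under 20%, and 7 reached 20% (22.6%, against 16.3% of all expressed genes with a share above 0). The 7 were Hnrnpu, Hnrnpll, Hnrnpdl, Hnrnpd, Srsf2, Rbm39 and Ptbp2. From the kallisto-style tables there were 12 (38.7%, against 17.5% of all expressed genes with a share above 0). Srsf3, Srsf6, Tra2b, Hnrnph3 and Clk4 were added. As a share of expected counts there were 4: Hnrnpu, Hnrnpll, Hnrnpdl and Hnrnpd. This last count was not made over all genes. Tested against the coding models, 24 of 31 members were more than 2-fold below (77.4%, against 87.9% of 2838 genes), 1 was above (3.23%, against 1.59%) and 6 were not called. Hnrnph3 was not called with a pseudocount of 1 (-1.21, adjusted p = 0.093, limma) or with the kallisto-style values (-1.07, adjusted p = 0.40). The median log2 ratio was -3.14 among members and -4.27 among all genes tested. In contrast to the retained-intron share, the NMD share was lowest in replicate 2 in 12 of 30 members with a single lowest library (40.0%, against 35.3%).

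Hnrnpu was the member called above. It encodes a scaffold-associated protein that binds RNA and chromatin, and lies at chr1:178321108-178337797 on the minus strand (ENSMUSG00000039630.10). Its NMD models held 78.5, 80.4 and 80.6% of its TPM, nearly all in Hnrnpu-206 at 58.9, 37.8 and 49.4 TPM. The only coding model, Hnrnpu-201, was at 15.02, 8.94 and 11.2 TPM. The NMD models were thus 4.17-fold above the coding model (log2 2.06 ± 0.12, adjusted p = 4.1e-05, limma), and the 3 libraries gave nearly the same share. The models share 12 identical exons. They differ in that Hnrnpu-201 (7640 bases) ends in 1 exon of 5065 bases, while Hnrnpu-206 (2844 bases) goes on into short exons, and its stop lies 183 bases before the last of 3 further junctions. In expected counts, which are not divided by length, the NMD share was 57.9, 59.9 and 60.8%, and the log2 ratio of 0.57 was not called (adjusted p = 1, limma). With the kallisto-style values the share was 78.2, 84.1 and 82.2%. Reads and junction counts were not examined. Hnrnpu-206 therefore cannot be told apart here from coding RNA with a last exon shorter than that of Hnrnpu-201. The share is the part assigned to the NMD models, and whether most Hnrnpu RNA is an NMD form was not tested.

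Hnrnpll, a relative of Hnrnpl known from exon choice in activated T cells, had 40.5, 40.1 and 36.8% of its TPM in Hnrnpll-203, whose poison exon is printed above. That model was at 7.42, 4.2 and 5.36 TPM, and the coding model Hnrnpll-205 was at 7.70, 5.62 and 7.56 TPM. The coding model was the higher in each library. Against both coding models the log2 ratio was -0.34 ± 0.17 (adjusted p = 1, limma). With the kallisto-style values the share was 50.5, 54.1 and 50.1% and the ratio turned to 0.50, also not called.

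Hnrnpdl and Hnrnpd are related AU-rich element binding proteins. Hnrnpdl had 36.2, 39.8 and 34.6% in 2 NMD models, of which Hnrnpdl-205 held 16.3, 24.8 and 22.1%. Hnrnpd had 21.5, 37.1 and 39.5%, nearly all in Hnrnpd-208, and replicate 1 stood low. The stop of Hnrnpd-208 is also the stop of a coding transcript, and 2 junctions lie behind it, so its annotation as an NMD model rests on those junctions and not on a poison exon. Their log2 ratios were -0.67 ± 0.17 and -1.07 ± 0.27, and neither was called (adjusted p = 1 and 0.43, limma). Hnrnpd was called below with the kallisto-style values (-1.90, adjusted p = 0.0023), and Hnrnpdl from expected counts (-1.35, adjusted p = 0.033).

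Srsf2 had 27.3, 37.1 and 32.7% of its TPM in the model Srsf2-204, which also uses the normal stop with 2 junctions behind it. This model is 620 bases long, against 1899 bases for the coding model Srsf2-201. In expected counts its share was 8.52, 12.8 and 10.5%, and the log2 ratio moved from -1.03 ± 0.19 (adjusted p = 0.47, limma) to -3.06 (adjusted p = 0.00075). It was also called below with the kallisto-style values (-1.53, adjusted p = 0.0097). Srsf2-204 overlaps exons of Mettl23 on the opposite strand over 448 of its bases, and Mettl23 was at 3.50 TPM. The coding model Srsf2-201 overlaps Mettl23 as well, by 460 bases. It also overlaps Mfsd11, likewise opposite and at 31.6 TPM, by 288 bases. Use of strand in the counting is not stated, so reads of these genes cannot be told apart from those of Srsf2. Its level and its shares are both uncertain for this reason.

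Rbm39 had 23.3, 28.6 and 23.7% of its TPM in 8 NMD models, and all models with a share stop in exons absent from its coding transcripts. The highest, Rbm39-225, was at 3.60, 2.99 and 3.91 TPM, and the coding model Rbm39-201 was at 12.5, 8.93 and 9.55 TPM. The log2 ratio was -1.27 ± 0.17 and was not called (adjusted p = 0.088, limma), while it was called below from expected counts (-2.14, adjusted p = 0.0011). The kallisto-style share was higher, at 37.3, 38.6 and 35.9%. Ptbp2, at a mean of 1.29 TPM, had 23.5, 19.2 and 28.4%, on only 24.7, 19.1 and 20.7 expected counts in its NMD models.

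The SR proteins and Tra2b with printed poison exons had lower shares than Hnrnpll and Rbm39 in the RSEM-style tables. Srsf3, the smallest SR protein and a promoter of message export, had 15.7, 18.1 and 13.4% of its TPM in Srsf3-201. Tra2b had 16.5, 15.2 and 15.2%, and Srsf4 had 16.7, 11.8 and 13.3%. Srsf11 had 5.0, 7.59 and 4.08%, of which Srsf11-206 held 3.16, 2.73 and 1.41%, more than 2-fold apart between libraries. The kallisto-style means were 26.3% for Srsf3 and 23.9% for Tra2b. The mean shares of expected counts were 15.5% for Srsf3, 9.22% for Tra2b, 5.45% for Srsf4 and 1.10% for Srsf11. The coding models of Srsf3, Tra2b and Srsf4 were 4.94-fold, 4.91-fold and 5.72-fold above the NMD models, and all 3 ratios were called (adjusted p = 0.00023, 0.00017 and 0.00011, limma). With the kallisto-style values Srsf3 was not called (-1.27, adjusted p = 0.073). Tra2a, Srsf7, Srsf9 and Srsf1 each had means under 5%. Srsf5, the most abundant SR gene, had 0.12, 0.14 and 0.04%.

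Srsf6 was the member whose NMD share differed most between quantifiers. In the RSEM-style reading Srsf6-201 held 20.98, 5.77 and 6.2% of the gene. In the kallisto-style reading it held 54.7, 49.9 and 43.0%. The log2 ratio went from -3.12 ± 0.40 (adjusted p = 0.00082, limma) to 0.05 (adjusted p = 1), so the call was lost and the sign turned. Replicate 1 stood apart in the RSEM-style reading and not in the other. The early stop of Srsf6-201 is shared with a short model annotated as coding, Srsf6-202, and for this reason the model counts here among those with the stop of a coding transcript.

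Among the kinases, Clk2 had 16.4, 13.3 and 22.9% and Clk4 15.5, 16.1 and 21.1% of TPM in NMD models. Clk1 had 7.58, 6.81 and 13.5% and Clk3 1.25, 1.73 and 1.46%. In Clk1, Clk2 and Clk4 replicate 3 was the highest. All 4 were called below their coding models, but Clk4 was not with the kallisto-style values (-1.20, adjusted p = 0.14, limma), and neither Clk2 nor Clk4 was with a pseudocount of 1. Hnrnpa1 had 18.1, 17.2 and 18.5%, in models that use the normal stop. Hnrnph1 has neither NMD nor retained-intron models, and 15 models without a reading frame held a mean of 38.1% of its TPM.

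**Figure D4:**
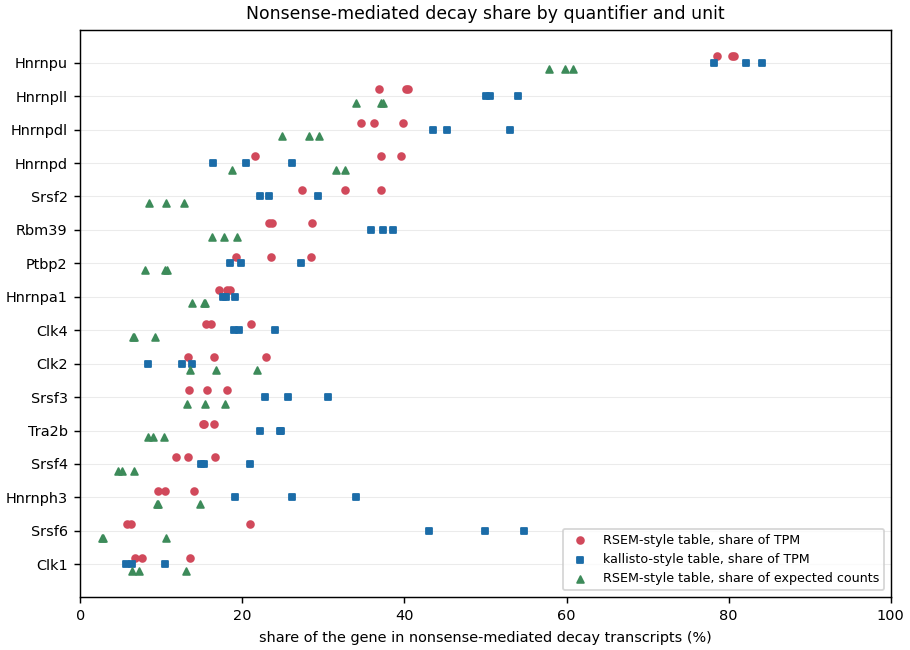
For the 16 members with a mean NMD share of at least 8%, points give the percent of the gene in NMD models in each of 3 libraries, as a share of TPM in the RSEM-style tables, of TPM in the kallisto-style tables, and of expected counts. Hnrnpu is above 50% in every reading, Srsf6 lies at 5.77 to 20.98% in one quantifier and at 43.0 to 54.7% in the other, and Srsf2 lies at 27.3 to 37.1% of TPM and 8.52 to 12.8% of counts.

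Over the 31 members with NMD models, the share in expected counts was below the share in TPM in every library for 21, and the kallisto-style share was above the RSEM-style share in every library for 15 and below it for 6. The NMD models of the members have a median length of 940 bases and their retained-intron models 879, against 1797.5 for their coding models. Isoform shares are therefore less certain than gene levels for these genes.

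Other genes of the splicing and decay machinery were read from lists, by the same level test. Over all tested genes 26.3% were above and 24.5% below. Of 32 core spliceosome genes 11 were above (34.4%), 1 was below (Prpf4) and 20 were not called, led by the branch point binder Sf1 at 33.9 ± 7.03 TPM and Sf3b2 at 33.7 ± 6.65 TPM. Of 23 other splicing regulators 20 were tested, with 14 above (70.0%) and 1 below (Tia1), led by Mbnl1 at 135 ± 23.9 TPM, a level near those of the leading hnRNPs. Rbfox2, Nova1 and Esrp1, known from muscle, neurons and epithelium, had means under 0.1 TPM. Among 6 SR kinases and phosphatases, only the phosphatase subunit Ppp1ca was above, at 68.7 ± 15.2 TPM, and Srpk1, Srpk2, Dyrk1a and Prpf4b were not called. None of 10 NMD factors was above by limma, the highest being Smg1 at a log2 level of 0.13, and 3 were below (Upf3b, Smg5 and Smg6), a share of 30.0%, near that of all genes. The helicase Upf1 was at 8.13, 5.43 and 6.47 TPM, close to the median gene. Of 9 exon junction complex genes 3 were above (33.3%) and 1 below (Magohb), and of 13 export genes 3 were above (23.1%) and 2 below (Nxt1 and Thoc6). These shares above lie near that of all genes.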

How the data were processed

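Per the deposited description files, reads were processed against mm10 with the GENCODE M21 annotation. Per the file headers, the authors' gene tables give the expected count, TPM and FPKM of each gene in columns named as RSEM writes them. The deposited transcript tables of that style give the expected count, the TPM and the percent of the gene's TPM in each transcript (IsoPct). A second deposited transcript table gives estimated counts and TPM in columns named as kallisto writes them. The aligner, the quantifier version and the strand setting were not given in the sources used here.

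Members and gene lists were chosen with earlier results of these data known. All 44 members matched GENCODE M21. Rows that are no annotated gene (26345, with 0.260, 0.0933 and 0.0577% of the counts in replicates 1, 2 and 3) were left out. The tested value was log2(TPM + 0.1) minus the library median over protein-coding genes with a mean of at least 1 TPM, or the log2 ratio of summed TPM + 0.1 of 2 biotypes. This scale understates differences of low genes. Intercept-only fits used limma 3.58.1 in R 4.3.3 with treat, a band of 1 (log2) and trend, and p-values were adjusted over all tested genes by Benjamini-Hochberg (0.05). Expected counts were rounded for the BCV of edgeR 4.0.16 (TMM, filterByExpr). The scripts were tested on simulated data. Shares, stop classes and sequences were computed in Python 3.11.15 with pandas 2.3.3. Per-sample values were given in full for the 3 highest and the lowest SR and hnRNP genes and for all other families. Transcripts were named where a biotype reached 20%, and Hnrnpm-213, Srsf6-201, Hnrnpa1, Hnrnph1 and the coding models were named after their values were seen. Alternatives were the kallisto-style values, FPKM, expected counts, TPM rescaled over protein-coding genes, a pseudocount of 1, a minimum of 5 TPM or none, and leaving out each replicate. The depth of 63944236 to 71989793 counts leaves members of a few TPM, such as Ptbp2, with few reads per isoform.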

Additional observations from a re-analysis of the deposited data

How the results depend on the processing

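No paired analysis was possible because all 3 libraries form 1 group. With a minimum of 5 TPM, which removes the 3 members called below, 15 members were above the median gene and 0 below, and over all genes 1255 were above and 491 below. With no minimum, 38 members were above and 0 below, and over all genes 4962 and 5433. With TPM rescaled over protein-coding genes 30 members were above and 1 below, and with the kallisto-style values 1427 genes were below. The minimum of 5 TPM moves the median gene and turned the sign of uncalled levels for Hnrnpa0 (-0.0042), Rbm25 (-0.15), Srsf7 (-0.0174), Srsf10 (-0.39), Srsf4 (-0.80), Hnrnpdl (-0.42), Tra2a (-0.24), Clk3 (-0.12), Rbm5 (-0.17), Srsf11 (-0.27) and Hnrnpr (-0.59). No minimum did so for Clk4 (0.55) and Rbm10 (0.27), and the kallisto-style values for Srsf4 (-0.28). Retained-intron calls over all genes were 25 above from expected counts and 3419 below with a minimum of 5 TPM. For NMD, expected counts left 0 members above. Over all genes 26 were above and 1524 below with a minimum of 5 TPM, and 27 were above with a pseudocount of 1. The kallisto-style values turned the NMD ratio of Srsf6 to 0.0506 and of Hnrnpll to 0.50. Leaving out 1 replicate gave a median BCV of the members from 0.0909 to 0.103, from 23 to 25 members above, from 31 to 32 below in retained-intron ratio, and 24 below in NMD ratio each time. The counts of shares by quantifier were alternatives chosen after seeing the data. Where not stated, the cause of a change was not tested.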
